A study of Homo sapiens with 16 samples.

Results

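The DEAD and DEAH box helicases were taken as the protein-coding genes whose symbol begins with DDX or DHX followed by a digit, with DDX20 left out and pseudogenes excluded. The rule found 53 members, 37 DDX and 16 DHX genes, among 19708 protein-coding genes and 58302 gene identifiers in the count files. RNA was sequenced from HEK293 cells, a permanent cell line derived from human embryonic kidney, in 16 libraries, 4 in each of 4 groups. Input Ctrl and Input siRNAG5 were cytoplasmic lysates, and Polysome Ctrl and Polysome siRNAG5 were pooled heavy fractions of sucrose gradients. The siRNAG5 cells had received 100 nM of a small interfering RNA against Gemin5, an RNA-binding protein of the SMN complex that also acts on translation. The sample labels call the Ctrl cells untreated, whereas the treatment protocol lists a control siRNA. The paper's legend to its Gemin5 immunoblot also names Ctrl as the siRNA control. Because the labels and the paper differ, Ctrl is described here only as cells without the Gemin5 siRNA. Silencing by siRNA is transient and partial.

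DEAD and DEAH box proteins are ATPases that bind RNA and open short duplexes or strip proteins from RNA. They share a helicase core with a series of short motifs, one of which (the box, or motif II, the Walker B motif that takes part in ATP hydrolysis) gave the family its name in the 1-letter amino acid code. The DEAD proteins generally pry duplexes apart locally, and the DEAH proteins move along a strand. Together they serve transcription, splicing, export, translation, decay and, in the nucleolus, the maturation of ribosomal RNA.

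A scan of the canonical coding sequences of the 53 members found the letters DEAD in 28 of them, all DDX genes, and DEAH in 8, all DHX genes. The box read DEVH in 6 members, DEVD in 2 (DDX21 and DDX50), DEIH in 2 (DHX9 and DHX36), DECD in 2 (DDX39A and DDX39B), DESD in 1 (DDX52) and DECH in 1 (DHX58). It was not found by the scan in 3 members. Printed here are the bases that encode the box, in capitals, with the 9 coding bases on each side, for the 5 members whose mRNA was called lower after Gemin5 depletion and for DDX39B, the near copy of DDX39A. They were read 5′ to 3′ on the coding strand of hg38 with GENCODE v44.
DDX39A: tttgtgctgGACGAGTGTGACaagatgctg
DDX39B: tttattttgGATGAATGTGATaagatgctt
DDX56: ttggtggtgGACGAAGCTGACcttcttttt
DDX49: ctggtgatgGATGAGGCAGACcggctgctg
DDX51: ctgattatcGACGAGGCTGACcggatgatt
DHX37: gtgatcatcGACGAGGCCCACgagaggagc
The windows lie in coding exons at chr19:14410999-14411028 on the minus strand (DDX39A), chr6:31536510-31536539 on the minus strand (DDX39B), chr7:44572612-44572641 on the minus strand (DDX56), chr19:18921962-18922352 on the plus strand (DDX49), chr12:132141394-132141500 on the minus strand (DDX51) and chr12:124971359-124971388 on the minus strand (DHX37). Those of DDX49 and DDX51 span an intron, which the printed bases leave out.

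Reads counted on genes ranged from 11145324 to 24511299 per library. GEMIN5 itself was lower in siRNAG5 than in Ctrl, at 6.22 to 7.46 against 15.9 to 20.7 CPM (counts scaled to library size) in Input and at 2.10 to 3.08 against 5.50 to 9.28 CPM in Polysome (log2 FC -1.40 and -1.44). All 7 HEK293 markers were detected in every library. The summed level of 12 liver genes was 141 and 122 CPM in Input Ctrl 3 and Input Ctrl 4 and 74.7 to 156 CPM in the 4 Polysome Ctrl libraries, but 0.97 to 2.39 CPM in Input Ctrl 1 and 2 and 0.33 to 1.13 CPM in the 8 siRNAG5 libraries. All 12 liver genes were detected in every Polysome Ctrl library, whereas 6 of them were at 0 in every Polysome siRNAG5 library. The summed level of 6 blood genes was 2.95 to 4.63 CPM in Polysome Ctrl and 0.33 to 1.52 CPM in the other 3 groups. In Polysome, Ctrl 1, siRNAG5 1 and siRNAG5 4 stood apart from the other 5 libraries on the third principal component, which carried 7.74% of the variance.

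CPM were scaled by TMM factors over the 16 libraries unless stated otherwise. Members were compared by edgeR's quasi-likelihood test fitted across all genes, and a call required an adjusted p (Benjamini-Hochberg) below 0.05 together with a log2 FC beyond 0.5 in either direction. Of the 53 members, 44 passed the filter on low counts in every fit and 9 did not. DDX43 and DDX53 had no read in any library and DDX4 had at most 1, all 3 being genes known from the germ line or tumours. DDX25, a testis gene, had 0 to 5 reads per library. The genes of the interferon response and RNA sensing were also scarce, with 1 to 18 reads for DDX60, 0 to 3 for DDX60L and 3 to 18 for DHX58. DDX3Y did not pass the filter. DDX47, a nucleolar helicase, had 0 to 2 reads. In GENCODE v44, a later annotation than that of the counting, 36.53% of its exonic bases and 99.67% of its canonical transcript are shared on the same strand with APOLD1, and reads that match more than 1 gene were not assigned to any. The part of this overlap in its count was not tested, and its level is not read from these files. The count of DDX39B can miss reads in the same way, since 30.78% of its exonic bases lie under other genes of the same strand, among them the readthrough gene ATP6V1G2-DDX39B. A readthrough gene also covers 23.91% of the exonic bases of DDX19A and 15.96% of those of DDX19B.

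The levels of the tested members per kilobase of merged exons covered a wide range in Input Ctrl. DDX39A, a DECD-box protein of mRNA splicing and export, was highest at 82.0 ± 11.2 CPM per kb (SD, n = 4). It was followed by the nucleolar helicases DDX56 at 55.2 and DDX49 at 54.4 CPM per kb, and then by DDX41 at 36.3 and DDX5 at 32.7 CPM per kb. DDX6, a translational repressor and activator of mRNA decapping, was the lowest tested member at 0.42 CPM per kb. With the length of the canonical transcript in place of merged exons, DDX39A, DDX56 and DDX49 again ranked 1 to 3, DDX1 moved from rank 8 to rank 4, and the values were higher (211 CPM per kb for DDX39A). The median over the members, 4.30 CPM per kb in Input Ctrl, 3.74 in Input siRNAG5, 4.12 in Polysome Ctrl and 3.22 in Polysome siRNAG5, describes the list only and was not tested.

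**Figure D1:**
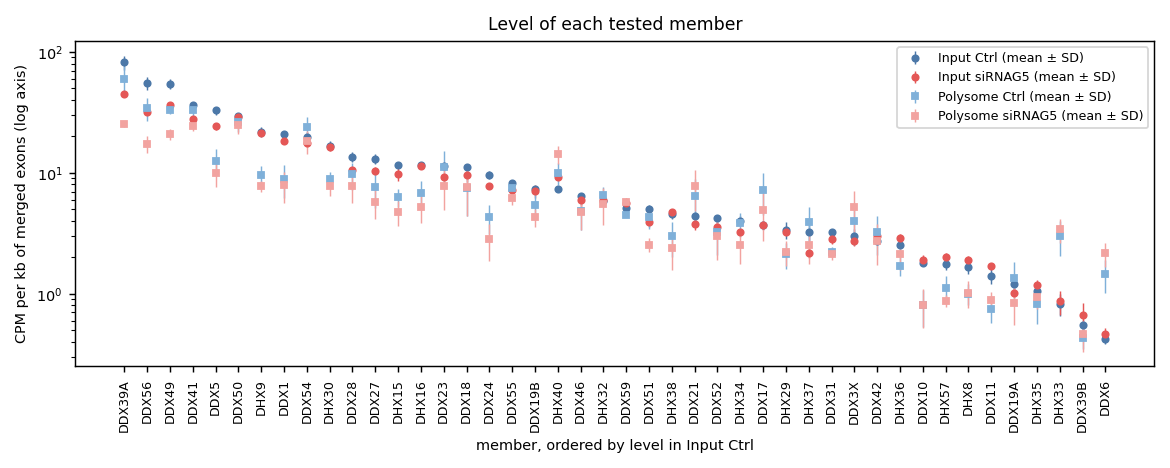
Mean level of each of the 44 tested members in the 4 groups, in CPM per kb of merged exons on a log axis, with bars for the SD over 4 libraries, ordered by the level in Input Ctrl. DDX39A is highest in Input Ctrl at 82.0 CPM per kb and DDX6 lowest at 0.42, and DHX33 and DDX6 lie well above their Input levels in both Polysome groups.

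To find which helicase mRNAs changed in the cytoplasmic mRNA pool, Input siRNAG5 was compared with Input Ctrl. Of the 44 tested members, 4 were called lower and 0 higher by edgeR. The 4 are DDX39A, DDX56, DDX49 and DHX37. Among all 14134 genes tested, 6.02% were called lower and 10.5% higher, so that the members' 9.09% called lower was close to the background share. The median log2 FC of the members was -0.11, against 0.04 over all genes, and 27 of the 44 values were negative. At an unadjusted p under 0.05, 19 members were lower and 3 higher, or 43.2% and 6.82%, against 22.5% and 22.9% of all genes.

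DDX39A lies at chr19:14408798-14419383 on the minus strand. Its level in Input Ctrl was 301, 378, 278 and 309.7 CPM in libraries 1 to 4, and in Input siRNAG5 it was 178, 173, 182 and 158 CPM. All siRNAG5 libraries were below all Ctrl libraries. The log2 FC was -0.86 ± 0.08 (SE, n = 4 against 4, adjusted p = 7.7e-10, edgeR), or 0.55 of the Ctrl level. In Polysome Ctrl the 4 libraries gave 263, 295, 152 and 216 CPM, and in Polysome siRNAG5 93.2, 103, 101 and 93.4 CPM. The groups again did not overlap, with a log2 FC of -1.21 ± 0.20 (adjusted p = 0.0085, edgeR). DDX39A was called lower in both fractions without any single library, in 8 of 8 fits each.

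DDX56, at chr7:44565804-44575051 on the minus strand, encodes a nucleolar helicase of large ribosomal subunit assembly. It was at 179.8, 235, 191 and 206 CPM in Input Ctrl and at 117, 114, 121 and 113 CPM in Input siRNAG5, with no overlap between the groups. The log2 FC was -0.79 ± 0.07 (adjusted p = 1.5e-09, edgeR). Polysome Ctrl held 95.0, 154, 114 and 139 CPM and Polysome siRNAG5 56.9, 75.1, 69.8 and 54.3 CPM, for a log2 FC of -0.92 ± 0.18 (adjusted p = 0.014, edgeR). The lowest Polysome Ctrl library still exceeded the highest Polysome siRNAG5 library. DDX56 was called in Polysome in 7 of 8 fits that left out a library, and without Polysome Ctrl 2 its adjusted p was 0.062.

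DDX49, at chr19:18919705-18929189 on the plus strand, encodes another nucleolar helicase, known from ribosomal RNA processing. Input Ctrl held 160.4, 199, 183 and 176 CPM and Input siRNAG5 122, 120.4, 127 and 112 CPM. The log2 FC was -0.57 ± 0.07 (adjusted p = 2.5e-07, edgeR). Polysome Ctrl held 101, 121, 108 and 108 CPM, and Polysome siRNAG5 65.3, 64.7, 65.2 and 79.8 CPM, with a log2 FC of -0.63 ± 0.13 (adjusted p = 0.017, edgeR). The groups did not overlap in either fraction, and siRNAG5 4 was the highest Polysome siRNAG5 library. The Polysome call was lost without Ctrl 2 (adjusted p = 0.071, edgeR) and without siRNAG5 1, 2 or 3 (adjusted p = 0.052 to 0.058), with the log2 FC between -0.56 and -0.60.

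DHX37, at chr12:124946825-124989131 on the minus strand, encodes the DEAH helicase that releases the U3 small nucleolar RNA during maturation of the small ribosomal subunit. Its level was 17.8, 26.3, 22.4 and 23.4 CPM in Input Ctrl and 17.0, 13.9, 13.9 and 15.5 CPM in Input siRNAG5. The groups did not overlap, though Ctrl 1 and siRNAG5 1 were close, and the log2 FC was -0.57 ± 0.11 (adjusted p = 0.00015, edgeR). Without Input Ctrl 2, the highest library, the log2 FC was -0.48 and DHX37 was not called, and in a fit of all 16 libraries its adjusted p was 0.099. In Polysome the log2 FC was of like size, -0.58 ± 0.28, but the groups overlapped (13.5, 28.2, 31.5 and 34.2 CPM in Ctrl against 12.7, 22.9, 20.6 and 13.1 CPM in siRNAG5) and the adjusted p was 0.20 (edgeR).

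DDX51, at chr12:132136594-132144319 on the minus strand, is known from the maturation of the 3′ end of 28S ribosomal RNA, by release of the U8 small nucleolar RNA. It was called lower in Polysome, where Ctrl held 19.9, 29.8, 27.1 and 32.7 CPM and siRNAG5 14.0, 17.6, 18.1 and 14.9 CPM (log2 FC -0.71 ± 0.17, adjusted p = 0.028, edgeR). In Input it was at 29.9, 34.6, 29.8 and 34.1 CPM in Ctrl and 27.2, 22.5, 26.2 and 23.9 CPM in siRNAG5, with a log2 FC of -0.35 ± 0.09 (adjusted p = 0.0027, edgeR) that fell short of the size set for a call. The groups did not overlap in either fraction. The Polysome call was lost without Ctrl 2 (adjusted p = 0.11), Ctrl 4 (0.071) or siRNAG5 1, 2 or 3 (edgeR). Whether its change differed between the fractions was tested directly and gave -0.39 ± 0.19 (Polysome minus Input, adjusted p = 0.70, edgeR).

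**Figure D2:**
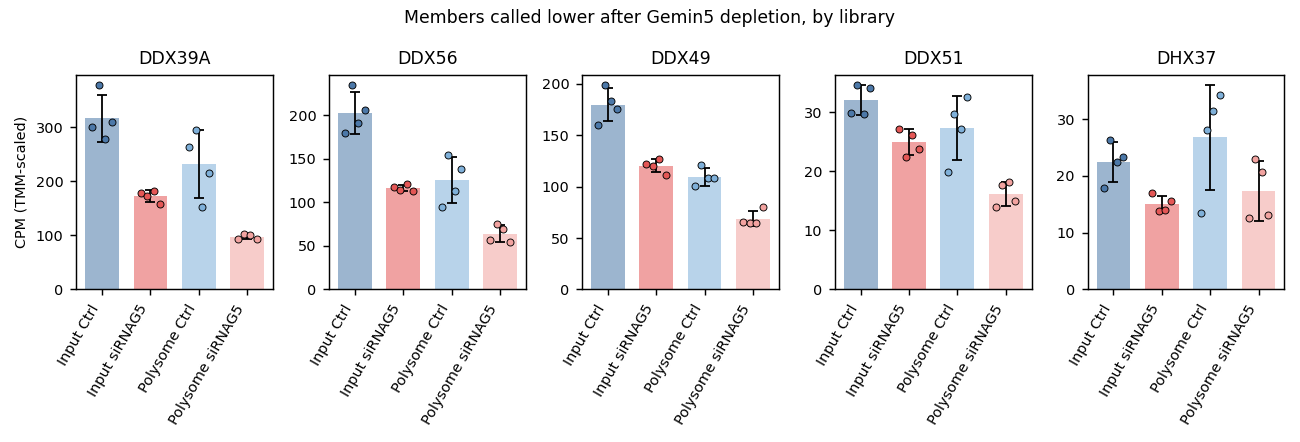
CPM of the 5 members called lower in Input or Polysome, with a point for each library, bars for the group mean and error bars for the SD over 4 libraries, each panel on its own linear axis from 0. In Input every siRNAG5 library of the 5 genes lies below every Ctrl library, and in Polysome this holds for all but DHX37.

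The siRNAG5 and Ctrl groups did not overlap in Input for 17 members, 15 lower and 2 higher, where 19.1% of all genes tested were lower without overlap and 15.1% higher. On the adjusted p alone, without the limit on size, 15 members were lower and 1 was higher (DHX40, log2 FC 0.36 ± 0.07), which is 34.1% and 2.27% of the members against 19.1% and 17.9% of all genes. By family, the log2 FC was negative for 22 of 29 DDX members (median -0.19) and for 5 of 15 DHX members (median 0.05). Of all genes tested in Input, 6569 of 14134 were negative. In Polysome the families were closer, with 20 of 29 DDX values negative (median -0.24) and 9 of 15 DHX values (median -0.18). The difference between the families was not tested. Leaving out Input Ctrl 3 and Input Ctrl 4, the Input libraries with liver reads, left 4 members called lower and 0 higher, with a log2 FC of -0.97 for DDX39A, -0.83 for DDX56, -0.57 for DDX49 and -0.56 for DHX37. In that fit 6.64% of all genes were called lower and 9.97% higher.

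In the role of ribosome biogenesis, 3 of 15 tested members were called lower in Input (DDX56, DDX49 and DHX37), 0 were called higher, and 13 of the 15 values were negative (median -0.21, range -0.79 to 0.10). The 3 called lower are 20% of the role, where 6.02% of all genes were called lower. A further 4 had an adjusted p under 0.05 with a smaller change. Of the most abundant members of the role that were not called, DDX50, a nucleolar paralogue of DDX21, was at 76.3 to 82.2 CPM in Input Ctrl and 73.9 to 81.8 CPM in Input siRNAG5 (log2 FC -0.03 ± 0.07). DDX54 was at 88.6 to 108 CPM in Ctrl and 85.4 to 96.4 CPM in siRNAG5 (-0.17 ± 0.07, adjusted p = 0.061, edgeR). DDX27 was at 61.1 to 76.3 CPM in Ctrl and 52.8 to 63.0 CPM in siRNAG5 (-0.31 ± 0.08, adjusted p = 0.0026, edgeR). In Polysome, 3 of the 15 were called lower (DDX56, DDX51 and DDX49), which is again 20% and stands against 4% of all genes, 0 were called higher, and the median was -0.24.

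Among the 14 tested members of pre-mRNA splicing, DDX39A was the only one called in either fraction, and the median log2 FC was 0.01 in Input and -0.28 in Polysome. DDX41, a helicase of the catalytic spliceosome, was at 138 to 157 CPM in Input Ctrl and 112 to 120.2 CPM in Input siRNAG5. The groups did not overlap and the log2 FC was -0.37 ± 0.07 (adjusted p = 4.7e-05, edgeR), short of the size for a call. In Polysome its groups did not overlap either (124 to 154 CPM against 93.4 to 112 CPM), with a log2 FC of -0.38 ± 0.14 (adjusted p = 0.10, edgeR). DDX5, an RNA helicase and transcriptional coregulator also known as p68, held 291 to 339 CPM in Input Ctrl and 207 to 242 CPM in Input siRNAG5 (-0.43 ± 0.07, adjusted p = 1.0e-05, edgeR). DHX15, which releases the intron lariat from the spliceosome, gave -0.24 ± 0.08 in Input (adjusted p = 0.017, edgeR). Of the 14 values in Input, 8 were positive and 6 negative. DHX40, named for its value and not its abundance, was at 42.2 to 45.6 CPM in Input Ctrl. It was higher in Input siRNAG5, at 52.7 to 57.5 CPM without overlap (adjusted p = 0.00030, edgeR). DDX42 was higher without overlap as well, at 0.16 ± 0.09 (adjusted p = 0.16, edgeR).

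The role of translation and mRNA decay had no called member in either fraction, of 6 tested. DHX9, also known as RNA helicase A, had 115 to 139.7 CPM in Input Ctrl and 125 to 129 CPM in Input siRNAG5, a log2 FC of 0.00 ± 0.07. DHX34, a factor of nonsense-mediated decay, was at 20.1 to 25.1 CPM in Ctrl and 16.9 to 19.1 CPM in siRNAG5 without overlap (-0.31 ± 0.10, adjusted p = 0.014, edgeR). DHX29, which helps the small ribosomal subunit scan structured leaders, gave -0.05 ± 0.11 in Input. DDX3X, a helicase that aids initiation on structured leaders, gave -0.12 ± 0.09 in Input and 0.44 ± 0.30 in Polysome (adjusted p = 0.34 and 0.37, edgeR). Its Polysome groups overlapped widely, 35.5 to 83.1 CPM in Ctrl and 52.5 to 109 CPM in siRNAG5.

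None of the remaining roles had a called member in Input or Polysome. DDX1, a member of the tRNA ligase complex, was at 199 to 222 CPM in Input Ctrl and 172 to 195 CPM in Input siRNAG5 (-0.19 ± 0.06, adjusted p = 0.017, edgeR). Of the mitochondrial helicases, DDX28 gave -0.35 ± 0.09 in Input (adjusted p = 0.0027, edgeR) and DHX30 -0.03 ± 0.07 (adjusted p = 0.81, edgeR). The difference between these genes was not tested. DDX11, a DNA helicase of sister chromatid cohesion, gave 0.27 ± 0.11 (adjusted p = 0.055, edgeR). DHX32, DDX59 and DHX57, left without a role here, had log2 FC of 0.05 to 0.20 in Input, none past an adjusted p of 0.05.

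**Figure D3:**
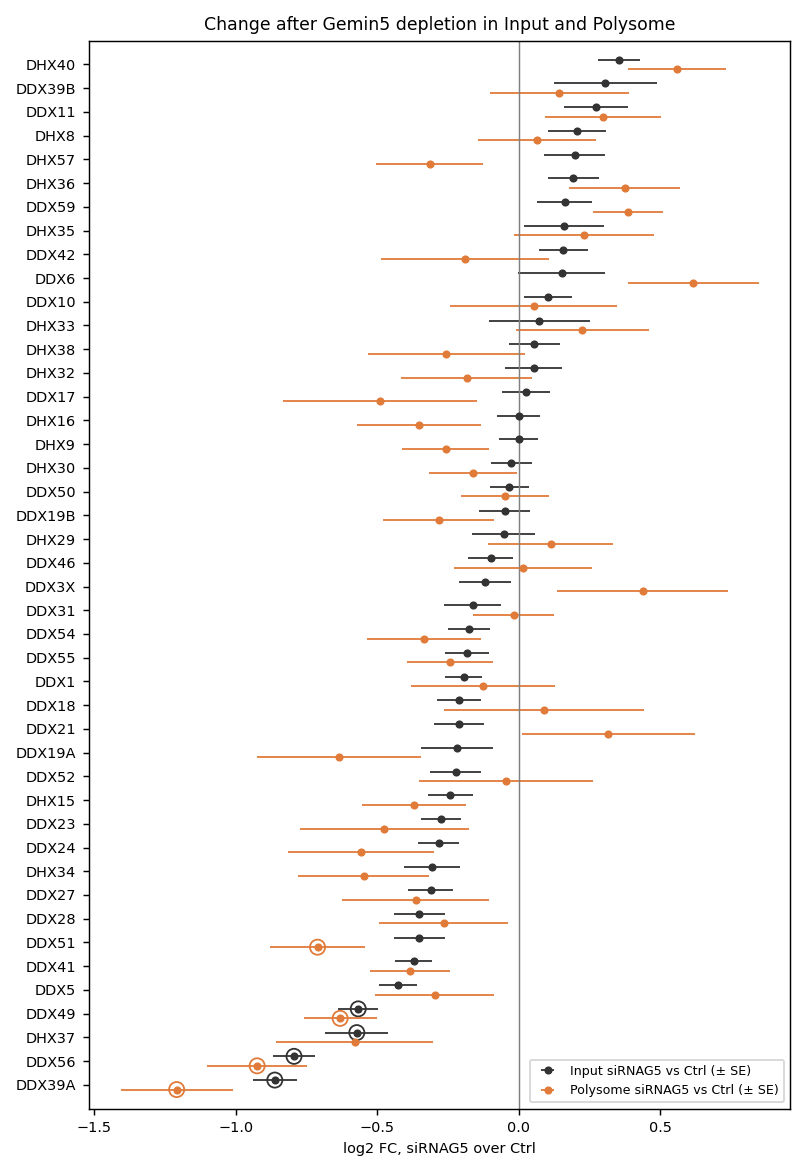
Log2 FC of siRNAG5 over Ctrl for the 44 tested members in Input (dark) and Polysome (orange), with bars for the SE, sorted by the Input value, and rings around called members. All 8 ringed values lie to the left of 0, from -0.57 to -1.21, and the Polysome bars are wider than the Input bars for most members.

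In Polysome, 4 of 44 members were called lower (DDX39A, DDX56, DDX51 and DDX49) and 0 higher by edgeR, where 4% of 14420 genes were called lower and 3.95% higher. DDX39A, DDX56 and DDX49 were thus called in both fractions. Leaving out 1 library left 1 to 4 called lower, where 0.768 to 5.72% of all genes were called lower. Without Polysome Ctrl 2 only DDX39A was called, and the share of all genes called lower was at its lowest, 0.768%. The median log2 FC of the members was -0.22 against 0.03 over all genes, and 29 of 44 values were negative. At an unadjusted p under 0.05, 7 members were lower and 3 higher, or 15.9% and 6.82%, against 13.3% and 14.4% of all genes. The groups did not overlap for 5 lower members and 1 higher member (DDX59, 0.39 ± 0.12), where 10% of all genes tested were lower without overlap and 8.29% higher. The spread between replicates was larger than in Input, with a biological coefficient of variation of 0.216 against 0.0806 over all genes. Liver reads mark every Polysome Ctrl library and no Polysome siRNAG5 library, so in Polysome their part in these changes cannot be told apart from the treatment.

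The 3 Polysome libraries that stood apart carried less of the helicase mRNAs. Polysome Ctrl 1 was the lowest of its group for 41 of the 44 members, or 93.2%, where it was the lowest for 32.9% of the 14958 genes tested. Of the Polysome siRNAG5 libraries, siRNAG5 4 was lowest for 26 members (59.1%) and siRNAG5 1 for 15 (34.1%), leaving 3 to the other 2 libraries. Over all genes tested, siRNAG5 4 was lowest for 27.6% and siRNAG5 1 for 23.7%. The summed level of the 44 members was 1595, 2289, 2229 and 2461 CPM in Polysome Ctrl 1 to 4, and 1428, 2054, 1983 and 1371 CPM in Polysome siRNAG5 1 to 4. The low libraries were thus 1 in Ctrl and 2 in siRNAG5. Reads aligned to several places made up 26.6 to 42.4% of these 3 libraries and 21.2 to 32.8% of the other 5, and the part of this share in the result was not tested. In Input the summed level was 2812 to 3198 CPM in Ctrl and 2365 to 2484 CPM in siRNAG5, with no overlap. There too members fell unevenly, though less than in Polysome Ctrl. Input Ctrl 1 was lowest for 23 members (52.3%) and Input siRNAG5 1 for 22 (50%), against 26.2% and 32.9% of all genes.

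**Figure D4:**
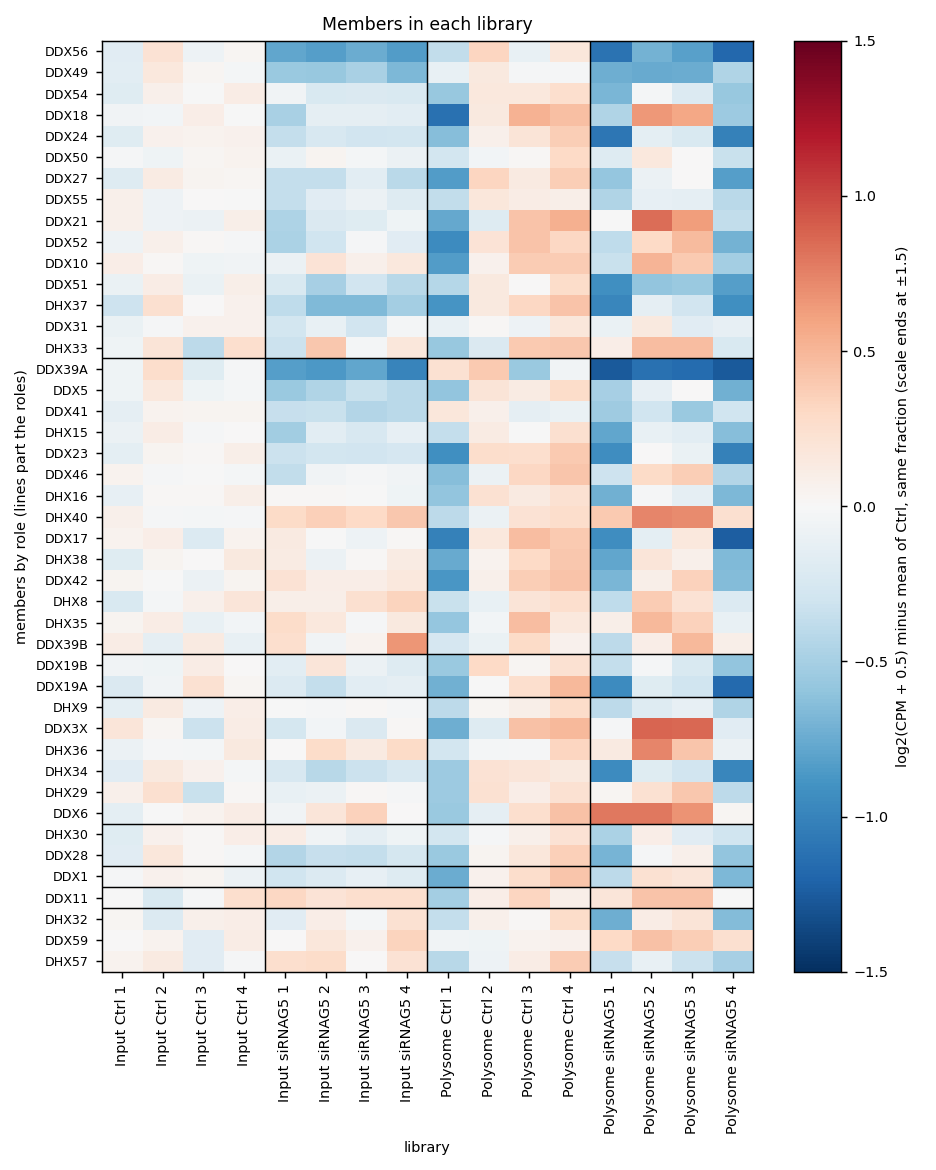
Level of each tested member in each library as log2(CPM + 0.5) minus the mean of the Ctrl libraries of the same fraction, ordered by role and within a role by the level in Input Ctrl, with blue for lower and red for higher. The rows of DDX56, DDX49 and DDX39A are blue in all 8 siRNAG5 libraries, and the columns Polysome Ctrl 1, siRNAG5 1 and siRNAG5 4 are blue for most members.

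The 4 calls in Polysome were also made without these 3 libraries, and others were added. Without Polysome Ctrl 1, siRNAG5 1 and siRNAG5 4, DDX39A, DDX56, DDX51 and DDX49 were again called lower, while 4 members were called higher: DDX3X (log2 FC 0.66), DHX40 (0.64), DDX6 (0.60) and DHX36 (0.56), with adjusted p of 0.0081 to 0.022 (edgeR). In that fit 12.1% of all genes were called lower and 9.02% higher, so the members' 4 and 4 of 44 (9.09% each) were close to the background shares. These 4 were named after their values were seen, as is every other gene named for a call under an alternative. Within the 8 libraries DHX40 held 44.1 to 69.8 CPM in Ctrl and 68.5 to 96.3 CPM in siRNAG5 and was not called (0.56 ± 0.17, adjusted p = 0.065, edgeR), and it was called by DESeq2 (0.52, adjusted p = 0.033). DDX6 held 10.8 to 22.0 CPM in Ctrl and 16.5 to 28.3 CPM in siRNAG5 (0.62 ± 0.23, adjusted p = 0.11, edgeR). With 1 surrogate variable in the fit, 10 members were called lower, the 6 added ones being DDX24, DDX23, DDX17, DDX19A, DHX34 and DHX37, and 1 was higher (DDX6), while the share of all genes called rose as well, to 9.67% lower and 10.6% higher.

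The change in Polysome was set against the change in Input to see whether Gemin5 depletion altered polysome association beyond the mRNA level. By edgeR, 0 of 44 members were called lower and 0 higher, and by DESeq2 0. Among all 14958 genes tested, 0% were lower and 0% higher by the same rule. With an unadjusted p below 0.05, 1 member was lower, DHX57 (-0.55 ± 0.21, adjusted p = 0.55, edgeR), and 0 were higher, against 701 lower and 388 higher among all genes. For the members called in both fractions, the difference was -0.37 ± 0.22 for DDX39A, -0.16 ± 0.20 for DDX56 and -0.09 ± 0.15 for DDX49, with adjusted p of 0.75 to 0.93 (edgeR). Without the 3 libraries that stood apart, 2 members were called higher in this comparison, DDX3X (0.74, adjusted p = 0.024) and DDX21 (0.69, adjusted p = 0.032, edgeR), where 0.691% of all genes were called higher and 4.3% lower. With all 16 libraries these were at 0.52 ± 0.35 and 0.49 ± 0.35.

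Polysome was then compared with Input within each group, which gives the relative representation of each mRNA on polysomes. In Ctrl cells 18 of 44 members were called lower in Polysome and 3 higher, where 18.2% of the 14958 genes tested were called lower and 19.4% higher. The members thus made up 40.9% called lower and 6.82% called higher, and their median log2 FC was -0.44 against -0.04 over all genes. In siRNAG5 cells 20 were called lower and 5 higher, against 25.4% and 21.5% of all genes, with a median of -0.42 against -0.12. The 2 comparisons share no libraries, but their difference is the one tested above. Liver genes summed to 74.7 to 156 CPM in every Polysome Ctrl library, but to 0.97 to 2.39 CPM in Input Ctrl 1 and 2. Reads aligned to several places were 4.88 to 5.43% in Input Ctrl and 21.2 to 32.8% in Polysome Ctrl. These imbalances enter the Ctrl comparison and the difference between fractions, and their part was not tested.

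The members lowest in Polysome relative to Input in Ctrl cells were DDX5, DDX1, DHX9, DDX24 and DDX10. DDX5 was at 291 to 339 CPM in Input Ctrl and 75.8 to 138 CPM in Polysome Ctrl, without overlap, and had the lowest log2 FC of the members in Ctrl, -1.38 ± 0.17 (adjusted p = 3.1e-06, edgeR). In siRNAG5 the value was -1.29 ± 0.17. DHX9 fell from 115 to 139.7 CPM in Input Ctrl to 42.2 to 67.5 CPM in Polysome Ctrl (-1.17 ± 0.13, adjusted p = 6.6e-07, edgeR), and gave -1.47 ± 0.13 in siRNAG5. DDX1 fell by 1.23 ± 0.20 on the log2 scale in Ctrl and DDX24, a nucleolar helicase, by 1.16 ± 0.20 (adjusted p = 7.5e-05 and 0.00014, edgeR). Of the members called lower after Gemin5 depletion, DDX49 (-0.71 ± 0.10) and DDX56 (-0.70 ± 0.14) were called lower in Polysome than in Input of Ctrl cells, while DDX39A gave -0.45 ± 0.15, DDX51 -0.23 ± 0.14 and DHX37 0.26 ± 0.23. In siRNAG5 cells DDX39A (-0.83 ± 0.16) and DDX51 (-0.62 ± 0.14) were called lower as well. There DDX49 (-0.81 ± 0.10) and DDX56 (-0.86 ± 0.14) were again called lower, and DHX37 gave 0.20 ± 0.23.

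The 3 members called higher in Polysome of Ctrl cells were DHX33, DDX6 and DDX17, the first and second of which were named after their values were seen. DHX33, a nucleolar helicase also linked to translation initiation, was at 4.48, 5.46, 3.47 and 5.69 CPM in Input Ctrl and at 11.2, 14.4, 22.2 and 22.3 CPM in Polysome Ctrl (1.87 ± 0.24, adjusted p = 5.5e-06, edgeR). DDX6 was at 4.28, 4.79, 4.98 and 5.21 CPM in Input Ctrl and at 10.8, 14.6, 19.2 and 22.0 CPM in Polysome Ctrl (1.79 ± 0.21, adjusted p = 2.2e-06, edgeR). For both genes every Polysome library exceeded every Input library. In siRNAG5 the values were 1.99 ± 0.23 for DHX33 and 2.22 ± 0.20 for DDX6, and DDX21, DDX3X and DHX40 were called higher as well (1.04, 0.93 and 0.62). DDX17 was not called in siRNAG5 cells, at 0.41 ± 0.27 (adjusted p = 0.21, edgeR), and without the Polysome libraries siRNAG5 1 and 4 and Ctrl 1 it was called there too (0.88). Without Polysome Ctrl 1, DDX21, DDX3X and DHX40 were called higher in Ctrl cells too, which made 6, where 20.7% of all genes were called higher.

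**Figure D5:**
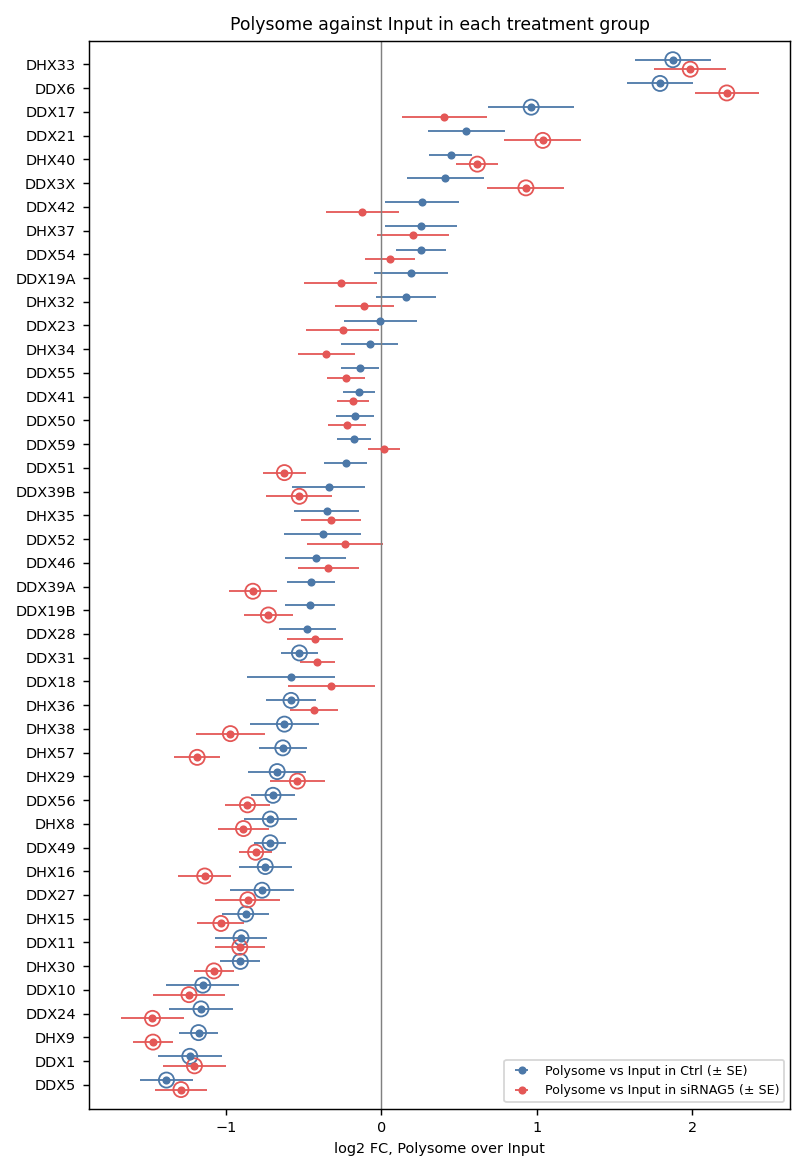
Log2 FC of Polysome over Input for the 44 tested members in Ctrl (blue) and siRNAG5 (red) cells, with bars for the SE, sorted by the Ctrl value, and rings around called members. DDX5 is lowest in Ctrl at -1.38 and DHX33 highest at 1.87, and most members lie to the left of 0 in both groups.

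The paralogue pairs are set side by side here, and differences within a pair were not tested. DDX39A and DDX39B are 80.0% identical over 1281 aligned coding bases and 90.2% over 427 residues, with no identical stretch longer than 26 bases. DDX39A fell in both fractions, while DDX39B, counted at 3.44 to 4.27 CPM in Input Ctrl and 3.69 to 6.36 CPM in Input siRNAG5, gave 0.31 ± 0.18 in Input and 0.14 ± 0.24 in Polysome (adjusted p = 0.19 and 0.74, edgeR), with the limit on its count given above. DDX5 and DDX17 are 67.4% identical in coding bases. DDX17 was at 31.8 to 39.5 CPM in Input Ctrl and 34.9 to 40.2 CPM in Input siRNAG5 (0.03 ± 0.08), where DDX5 gave -0.43. Between fractions in Ctrl cells the values were -1.38 for DDX5 and 0.96 ± 0.28 for DDX17 (adjusted p = 0.0080, edgeR), although the DDX17 groups overlapped because Polysome Ctrl 1 was at 32.6 CPM and the other 3 Polysome Ctrl libraries at 74.2 to 92.4 CPM.

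DDX21 and DDX50, neighbours on chromosome 10 with DEVD boxes, are 68.8% identical in coding bases. DDX21 gave -0.21 ± 0.09 in Input and 0.32 ± 0.31 in Polysome, and DDX50 -0.03 ± 0.07 and -0.05 ± 0.16, none of the 4 past an adjusted p of 0.05 (edgeR). DDX19A and DDX19B, export factors at the nuclear pore, are 95.3% identical with an identical stretch of 315 bases, so reads can be lost or shared between them and both are uncertain. DDX19A gave -0.22 ± 0.13 in Input and -0.64 ± 0.29 in Polysome, and DDX19B -0.05 ± 0.09 and -0.28 ± 0.20, with adjusted p of 0.18 to 0.71 (edgeR). DDX60 and DDX60L, 77.6% identical, were both too scarce to test.

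Members with a higher level tended to have a lower log2 FC, as did protein-coding genes at large. Across the 44 members the Input log2 FC had a Spearman rho of -0.61 with the mean CPM in Ctrl libraries and 0.27 with the length of the canonical transcript, against -0.47 and 0.24 across 11884 protein-coding genes tested. In Polysome the values were -0.44 and 0.28 for the members and -0.52 and 0.35 over 12263 genes. The level was the mean over the Ctrl libraries of both fractions, in CPM without TMM factors. Genes are not independent replicates, and the Ctrl libraries enter both the level and the fold change. The canonical transcripts of the 4 members called lower in Input are 1498 to 4559 bases long with a median of 1824, against a median of 3804 over the 44 tested.

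A 5′ terminal oligopyrimidine start is a feature of ribosomal protein mRNAs. A C at the annotated start followed by 4 C or T bases, searched on the gene's strand only, was found for 4 of the 48 members with a RefSeq start window, or 8.33%, and for 5.14% of all 27305 genes with one. The 4 were DDX21, DDX5, DDX50 and DDX54, none of which was called in Input or Polysome. The same search found the run for 48 of 69 cytosolic ribosomal protein genes, or 69.6%, so the lack of a hit does not show that a gene has no such start. It describes annotated starts, not the starts used in these cells.

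Helicases outside the DDX and DHX symbols mostly had positive values in Input, 14 of 18, where 7565 of all 14134 genes tested were positive. Of 22 related helicases, 18 were tested, and EIF4A1, TDRD9, DQX1 and IFIH1 were not. In Input 3 were called higher and 0 lower, MOV10 (0.67 ± 0.09), EIF4A2 (0.63 ± 0.07) and HELZ (0.62 ± 0.19), with adjusted p of 3.8e-08 to 0.0085 (edgeR), and the median was 0.35. The 3 are 16.7% of those tested, where 10.5% of all genes were called higher. EIF4A2, a DEAD box protein of the cap-binding complex, was also called higher in Polysome (0.60 ± 0.14, adjusted p = 0.028, edgeR). EIF4A3, the DEAD box core of the exon junction complex, gave -0.32 ± 0.06 in Input. EIF4A1, a close relative of EIF4A2, had 0 to 5 reads per library, but in GENCODE v44 100% of its canonical transcript is shared with other genes of the same strand, among them the readthrough gene SENP3-EIF4A1, so its level is not read from these files. The part of the overlap in its count was not tested. RIGI, which was tested, had 4 to 34 reads per library. In GENCODE v44 96.61% of its canonical transcript is shared on the same strand, so its value is uncertain.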

How the data were processed

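RNA from cytoplasmic lysates (Input) and pooled polysomal fractions (Polysome) of HEK293 cells, 4 independent samples per group, was sequenced by the authors from polyadenylated RNA with a stranded kit. They aligned reads to GRCh38 with STAR 2.5.3a, as in the submitters' processing notes, assigned them to Ensembl genes with QoRTs, and the deposited values are raw whole-number counts. Reads aligned to several places (4.88 to 42.4% of a library), to no gene (0.667 to 1.33%) or to more than 1 gene (4.14 to 7.41%) are listed outside the genes and did not enter library sizes or tests. The share aligned to several places was 4.88 to 6.04% in Input and 21.2 to 42.4% in Polysome.

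Symbols, lengths and coordinates came from GENCODE v44 (hg38), a later release than the authors' annotation, which named 57532 of 58302 identifiers. Input and Polysome were each fitted alone, and the difference between fractions and the Polysome against Input comparisons in a fit of 16 libraries, by the quasi-likelihood test of edgeR 4.0.16 under R 4.3.3 (low counts removed by filterByExpr, TMM factors, group as the only term, adjustment over all genes tested). CPM used TMM factors of the 16 libraries, except for the level set against the log2 FC by rank correlation. Boxes were searched in canonical coding sequences between a GK[S/T] and an [S/T]A[S/T] motif, and paralogues aligned globally with Biopython 1.88. Start windows are those of RefSeq. Scripts were tested on simulated counts.

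Members, roles and lists were chosen with earlier results of these data known. Full values are given for members called in Input, Polysome or the difference between fractions, examples of a role are its most abundant members per kb in Input Ctrl, and paralogue pairs are set side by side. DHX40 and DDX42 were added to the examples of splicing for their values. Alternatives were DESeq2 1.42.0, RLE size factors, no filter, a replicate block, each library left out in turn, the adjusted p alone, all 16 libraries in a fit, 1 surrogate variable (sva 3.50.0) and leaving out 3 Polysome libraries in the Polysome fit and in the comparison of changes. Leaving out Input Ctrl 3 and 4, leaving out the 3 Polysome libraries from the Polysome against Input comparisons, and the canonical transcript length were chosen after seeing the data. In bulk RNA, fewer cells of a type and less RNA per cell cannot be told apart.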

Additional observations from a re-analysis of the deposited data

Results flagged for a closer look

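Within each group of 4 libraries, the gap of the highest or lowest library to its nearest neighbour was set against the range of the group for each of the 44 tested members. A ratio above Dixon's 95% limit for 4 libraries, which chance passes in about 1 of 20 groups, was found in 13 of 176 groups, or 7.39%. Input siRNAG5 1 was the lowest library of its group for DDX18 (62.0 CPM against 77.6 to 79.0 CPM in the other 3, ratio 0.918) and DDX46 (46.0 CPM against 57.2 to 58.8 CPM in the other 3, ratio 0.876). Input siRNAG5 1 was the highest library of its group for DDX54 (96.4 CPM against 85.4 to 86.6 CPM in the other 3, ratio 0.887). Polysome Ctrl 1 was the lowest library of its group for DDX23 (41.0 CPM against 93.2 to 103 CPM in the other 3, ratio 0.845), DDX54 (79.0 CPM against 130.3 to 139.8 CPM in the other 3, ratio 0.844), DDX55 (32.7 CPM against 45.0 to 47.5 CPM in the other 3, ratio 0.830), DHX16 (17.5 CPM against 29.1 to 31.2 CPM in the other 3, ratio 0.852) and DHX34 (14.3 CPM against 23.4 to 24.7 CPM in the other 3, ratio 0.883). Input Ctrl 1 was the lowest library of its group for DDX24 (72.7 CPM against 85.1 to 86.0 CPM in the other 3, ratio 0.933) and DDX41 (138 CPM against 156 to 157 CPM in the other 3, ratio 0.924). Input Ctrl 2 was the highest library of its group for DDX5 (339 CPM against 291 to 297 CPM in the other 3, ratio 0.874). Input Ctrl 1 was the highest library of its group for DHX40 (45.6 CPM against 42.2 to 42.7 CPM in the other 3, ratio 0.874). Polysome siRNAG5 4 was the highest library of its group for DDX49 (79.8 CPM against 64.7 to 65.3 CPM in the other 3, ratio 0.961). Polysome Ctrl 1 accounts for 5 of the 13, which is the library that was lowest of its group for 41 of 44 members. Of these genes only DDX49 was called in a comparison of siRNAG5 with Ctrl, and without Polysome siRNAG5 4 it remained called in Polysome.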

How the results depend on the processing

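Counts of members called lower and higher were the same under RLE size factors, except that Polysome against Input in siRNAG5 had 18 lower in place of 20 (DDX39B and DHX29 lost). There 22.6% of all genes were called lower, against 25.4% in the fit reported. In Polysome siRNAG5 against Ctrl, the count called higher, 0 in the fit reported, became 1 with DESeq2 and 1 without the filter on low counts (DHX40 in both). The share of all genes called higher was 5.83% and 3.01% in these fits, against 3.95% in the fit reported. The count called higher became 2 with all 16 libraries in a fit (7 called lower), where 7.2% of all genes were called higher and 10.2% lower. It became 1 with a surrogate variable (10 called lower), where 10.6% of all genes were called higher and 9.67% lower. It became 4 without Polysome Ctrl 1, siRNAG5 1 and siRNAG5 4, where 9.02% of all genes were called higher and 12.1% lower. Without these 3 libraries the difference between fractions had 2 members called higher, where 0.691% of all genes were. Polysome against Input then had 16 lower and 6 higher in Ctrl (35.6% and 13.3%), against 19.1% and 21.3% of all genes. In siRNAG5 it had 17 lower (DDX39B, DDX51 and DHX29 lost) and 7 higher (DDX17 and DHX37 added). These are 37.8% and 15.6% of the members, against 29.4% and 24.7% of all genes. On the adjusted p alone, Input siRNAG5 against Ctrl had 15 members lower and 1 higher, against 19.1% and 17.9% of all genes. Canonical transcript length gave median levels of 7.64 CPM per kb in Input Ctrl, 7.60 in Input siRNAG5, 6.79 in Polysome Ctrl and 5.17 in Polysome siRNAG5. The cause of these shifts was not tested, apart from the shorter lengths in the last case.

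Leaving out each library in turn gave 3 to 4 members lower and 0 to 0 higher in Input, 1 to 4 lower and 0 to 2 higher in Polysome, and 0 to 0 in both directions for the difference between fractions. The shares of all genes were 4.83 to 6.65% lower and 8.3 to 10.8% higher in Input. In Polysome they were 0.768 to 5.72% lower and 0.517 to 4.7% higher. For Polysome against Input it gave 16 to 21 lower and 3 to 6 higher in Ctrl, against 16.4 to 17.7% and 17 to 20.7% of all genes. In siRNAG5 it gave 18 to 21 lower and 5 to 5 higher, against 21.7 to 27% and 20.1 to 22.1% of all genes. The 2 higher in Polysome were DDX6 and DHX40, without siRNAG5 4. The 3 lower in Input were without Ctrl 2.

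The correlation of same-numbered deviations from the group means ranged from -0.48 to 0.45 between Polysome Ctrl and Polysome siRNAG5. Between Input and Polysome of the same treatment it ranged from -0.19 to 0.22. The paper describes taking Input and polysomal RNA from individual lysates. These correlations cannot show whether libraries of the same number came from the same lysate. The replicate block grouped libraries by number alone, which joined Ctrl and siRNAG5 libraries of the same number. Neither the reported comparisons nor this block had a term for each lysate, so the effect of pairing Input with Polysome was not tested. With the replicate block, 4 members were called lower and 0 higher in Input, 4 and 0 in Polysome. It gave 0 and 0 for the difference between fractions, 19 and 3 for Polysome against Input in Ctrl and 20 and 5 in siRNAG5. The shares of all genes called lower and higher were 5.99% and 10.4% in Input and 3.87% and 3.08% in Polysome. For Polysome against Input they were 18.7% and 19.1% in Ctrl and 25.9% and 21.3% in siRNAG5. Of 3608 further values for single members under alternatives, 3349 kept their direction and their side of the threshold, 63 passed it, 39 lost it and 157 changed sign while not called. Whether depth limits the 9 untested members was not tested, and the spread between Polysome libraries limits what can be called there.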
